A study of Mus musculus with 50 samples.

Results

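Hearts under stress from 2 different sources were set directly against each other: left ventricles of mice that overexpress LARP6 in cardiomyocytes and received saline (Tg saline), and left ventricles of wild-type mice that received angiotensin II (WT Ang II). The libraries were chosen by the letters in their column names, which code genotype, infusion and sex, and 2 libraries whose letters and titles disagree were left out. This gave 25 of the 50 RNA-seq libraries of the series, 12 of Tg saline (6 female, 6 male) and 13 of WT Ang II (7 female, 6 male). Libraries of wild-type mice given saline (WT saline, 5 female and 6 male) served as the reference for both states. All mice were on the C57BL/6J background, aged 40 weeks, and were infused for 21 days with saline or with Ang II (1000 ng/kg/min). The 2 states differ in genotype and in infusion at once, so a difference between them is a difference between whole conditions and not the effect of one factor. The promoter that drives the transgene is not described in the labels, and every library number occurs once, so each library was taken as 1 animal.

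LARP6 is an RNA-binding protein of the La-related family, best known for binding a stem-loop in the messenger RNAs of type I collagen in fibroblasts. Ang II is a peptide hormone that constricts vessels, raises blood pressure and acts on the heart and kidney through its type 1 receptor. A loaded ventricle typically turns on a set of genes of fetal cardiac muscle, such as the natriuretic peptides and the slow myosin heavy chain, while its fibroblasts make more matrix.

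The 25 libraries held 53877439 to 89115441 counts each. A gene of median abundance had a mean count of 1185, which puts its counting error at 2.91%, small beside the spread between animals. Levels are given as scaled FPKM, the authors' fragment count per unit of gene length and library depth after division by a median-of-ratios factor, and differences as log2 of Tg saline minus WT Ang II with their standard error (SE). Tests were edgeR's quasi-likelihood tests with Benjamini-Hochberg adjusted p over the 11628 genes tested, and a gene is called at an adjusted p under 0.05. The share of counts from the mitochondrial genome was 28.1 to 35% in Tg saline, 30.1 to 38.8% in WT Ang II and 32.6 to 38.8% in WT saline. Of 10 atrial markers, 5 were tested, and Clu and Pam, which other heart cells also make, were higher in Tg saline by 0.48 and 0.43 (40% against 16.2% of all genes) while none was lower. The list's summed level was 228 to 318 scaled FPKM in Tg saline and 152 to 260.1 in WT Ang II. The myosin light chains and other genes that define atrial muscle were near 0 in all 25 libraries (highest Myl7 0.416, Myl4 0.637, Bmp10 0.0592 and Sln 0.0501 scaled FPKM), and no epicardial, adipocyte or Schwann cell marker was abundant enough to be tested.

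Larp6 (chr9:60712989-60738801, plus strand, positions from the deposited table) checked the genotype labels. Its level was 442 to 1627 scaled FPKM in Tg saline (median 976) and 19.6 to 62.8 in WT Ang II (median 35.0), against 5.6 to 63.5 in WT saline. Every Tg saline library lay above every wild-type library, and the log2 difference between the 2 states was 4.72 (SE 0.25, adjusted p = 7.23e-19). Of the other 6 members of the La-related family, Larp1, which binds messenger RNAs of the translation machinery, was higher in Tg saline by 0.14. Larp1b was lower by a log2 difference of -0.30, and 4 were not called. The Larp1 call was kept in 17 of the 25 fits that left out 1 library (highest adjusted p 0.0696). Larp6 included, 28.6% of the family were higher and 14.3% lower, against 16.2% of all genes in each direction.

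Between Tg saline and WT Ang II, 3770 genes were called, which is 32.4% of those tested: 1886 (16.2%) were higher in Tg saline and 1884 (16.2%) were lower. Most of these differences were small, and 481 genes (4.14%) were called and at least 1.5-fold apart, 304 (2.61%) higher in Tg saline and 177 (1.52%) lower. Scaled by library size alone, 2979 genes were called higher and 991 lower, because that scaling moved the median of all genes from 0.00 to 0.08. Where that scaling moved the share of higher among the called members of a list by over 10 percentage points, and for some other lists, the counts it gave follow the words "by library size". A list whose shares lie near 16.2% in each direction does not stand out from all genes tested. For 121 genes (1.04%) the 2 groups of libraries did not overlap, 65 (0.559%) higher in Tg saline and 56 (0.482%) lower. Equal level was judged by the 95% interval of the difference: for 9895 genes (85.1%) it lay inside a 1.5-fold range in both directions, including 2637 (22.7%) that were called with a small difference. For 600 genes (5.16%) neither a difference nor a level within 1.5-fold could be shown. Several results below are also given without 4 libraries that stood apart, each far from the rest of its group and sex in 3 or more of the named genes: Tg saline female replicate 1 and male replicate 6, and WT Ang II female replicate 7 and male replicate 1. Without them 3569 genes were called, and 3200 of the 3770 were among these.

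Set against WT saline, 4736 genes (40.7%) were called in Tg saline, 2378 (20.5%) higher and 2358 (20.3%) lower. In WT Ang II 1766 genes (15.2%) were called, 909 (7.82%) higher and 857 (7.37%) lower. Both comparisons use the same 11 WT saline libraries, so a gene whose WT saline level is off by chance moves in both at once. The 2 changes are therefore given side by side and not as evidence for each other.

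**Figure D1:**
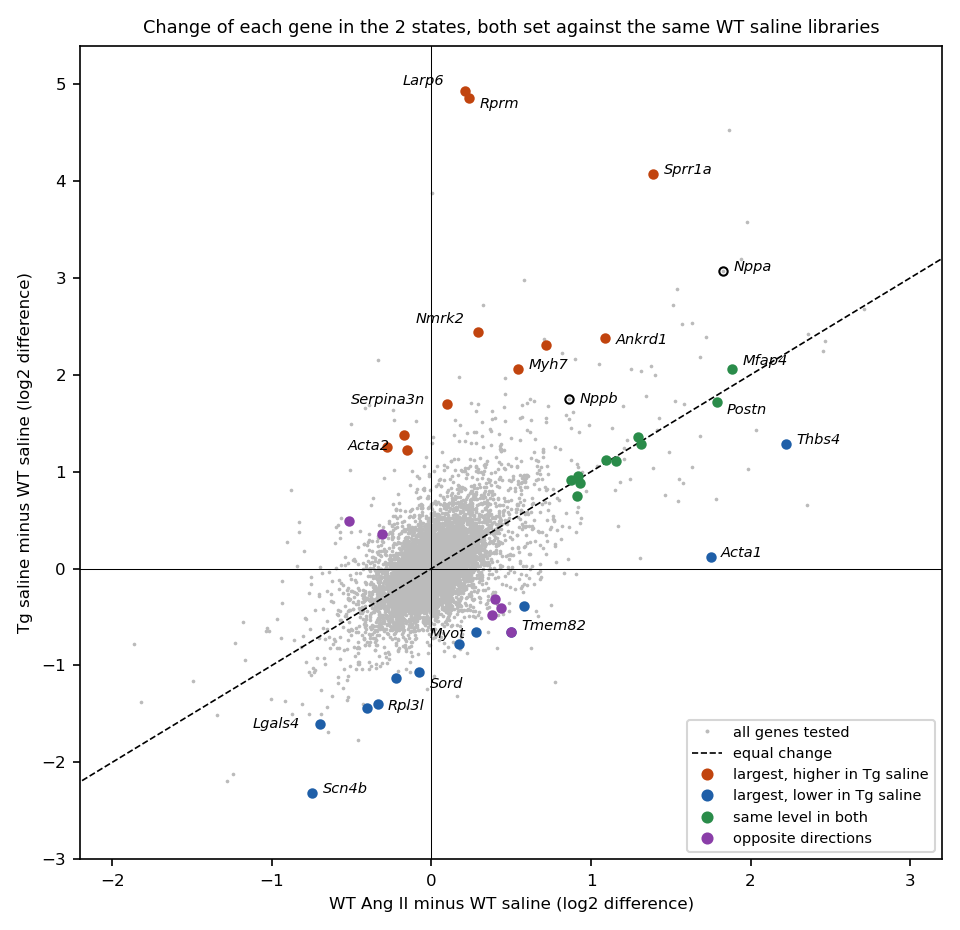
Log2 change of each tested gene in WT Ang II (horizontal axis) and in Tg saline (vertical axis), both against the same WT saline libraries; the dashed line marks an equal change. Larp6, Rprm and Sprr1a are the labelled genes highest above the line, Acta1 lies far below it with a change of 1.75 in WT Ang II and 0.12 in Tg saline, and the genes at the same level lie along it; 3 tested genes fall outside the axes.

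Beside Larp6 and Gm49909, which is described with the results that rest on few libraries, the largest positive differences were those of Rprm, Sprr1a and Nmrk2. Rprm (chr2:54084093-54085552, minus strand) encodes Reprimo, known for arresting the cell cycle in G2. Its level was 19.4 to 56.6 scaled FPKM in Tg saline (median 35.7), 0.629 to 2.65 in WT Ang II (median 1.52) and 0.239 to 2.41 in WT saline. No library of the 2 states overlapped, and the log2 difference was 4.62 (SE 0.21, adjusted p = 9.58e-22). Of 14 tested cell cycle genes, Rprm was higher (7.14% against 16.2% of all genes) and 12, among them Mki67, Top2a and Ccna2, were not called. Cdkn1a, a cyclin-dependent kinase inhibitor, was lower by -0.71 (adjusted p = 0.0314), and this call was kept in 17 of the 25 fits that left out 1 library.

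Sprr1a, a small proline-rich protein known as a stress response gene of cardiomyocytes, ranged from 4.3 to 14 scaled FPKM in Tg saline (median 6.32) and from 0.524 to 3.59 in WT Ang II (median 0.765). The groups did not overlap, with a log2 difference of 2.68 (SE 0.29, adjusted p = 1.39e-09). Against WT saline the change was 4.07 in Tg saline and 1.39 in WT Ang II, so the gene was above the reference in both states and further above it in Tg saline.

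Nmrk2, a nicotinamide riboside kinase of muscle that feeds NAD synthesis, was at 12.8 to 32.8 scaled FPKM in Tg saline (median 22.4) and at 2.64 to 10.3 in WT Ang II (median 4.61), again without overlap. Its log2 difference was 2.15 (SE 0.19, adjusted p = 1.09e-11), and its change against WT saline was 2.44 in Tg saline and 0.29 in WT Ang II. Of 11 tested genes of NAD synthesis, Nmrk2 was the 1 called higher (by library size, 2 were). Nnt, Naprt and Nmnat1 were called lower by differences of -0.36, -0.25 and -0.14. These shares are 9.09% and 27.3%, against 16.2% of all genes in each direction. Scaled by library size alone, Naprt (-0.18, adjusted p = 0.0686) and Nmnat1 (-0.07, adjusted p = 0.349) were not called.

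Serpina3n, an acute-phase serine protease inhibitor, had a median of 28.3 scaled FPKM in Tg saline (15.1 to 34.5) and of 6.88 in WT Ang II (5.2 to 18.9). Its log2 difference was 1.60 (SE 0.19, adjusted p = 9.95e-09) and the WT Ang II median lay below the WT saline median of 7.86. Lgals3, which encodes galectin-3 and is made by macrophages and stressed muscle, had medians of 5.52 and 1.79 scaled FPKM and a log2 difference of 1.59 (SE 0.22, adjusted p = 2.26e-07). The complement genes C3 and C4b, named after their values were seen, were higher in Tg saline by 0.88 and 1.14, and the C3 groups did not overlap (32.4 to 73.4 against 16.8 to 29.9 scaled FPKM).

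Of the 12 largest positive differences, 3 rested on few libraries. Rn7s1 and Rn7s2, near-identical copies of the 7SL RNA of the signal recognition particle whose reads cannot be told apart with certainty, had log2 differences of 1.55 and 1.53. Tg saline male replicate 6 held 30.3 and 30.7 scaled FPKM and Tg saline female replicate 1 held 9.59 and 10.1, where the Tg saline medians were 1.98 and 2.25. Without the first of these libraries the differences were 0.94 and 0.92. Without the 4 libraries that stood apart, they were 0.55 (adjusted p = 0.0775) and 0.55 (adjusted p = 0.0954). Gm49909, an annotated gene with no name beyond its model number, was listed at 0 in some libraries of both groups and reached 75.2 scaled FPKM in Tg saline and 27.8 in WT Ang II. Its fitted difference of 5.20 (SE 1.39) depends on those few libraries: it was 4.28 without Tg saline male replicate 6 and 8.06 without WT Ang II female replicate 5, which held the 27.8.

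Load genes differed between the 2 states in both directions. Of 20 tested load and hypertrophy markers, 10 were higher in Tg saline (50%), 3 were lower (15%) and 7 were not called. These shares compare with 16.2% of all genes in each direction. The median log2 difference was 0.30 against 0.00 over all genes tested. Without the 4 libraries that stood apart the counts were 13 higher and 3 lower. The natriuretic peptides, the slow myosin and the stress sensor Ankrd1 were among the higher genes, while the skeletal actin Acta1 and the actin-binding Xirp2 were among the lower.

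Nppa, which encodes atrial natriuretic peptide, was at 513 to 2063 scaled FPKM in Tg saline (median 1008) and at 194 to 1144 in WT Ang II (median 460), against 89.7 to 202 in WT saline. The 2 states overlapped, and their log2 difference was 1.25 (SE 0.23, adjusted p = 3.17e-05). Both states stood above the reference, by 3.07 in Tg saline and 1.83 in WT Ang II.

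Nppb, which encodes the B-type natriuretic peptide, overlapped more. It ranged from 164 to 666 scaled FPKM in Tg saline (median 209) and from 49.8 to 343 in WT Ang II (median 115), with a log2 difference of 0.89 (SE 0.27, adjusted p = 0.00921). The highest value was that of Tg saline male replicate 6, and without it the difference was 0.64 (adjusted p = 0.0491). With a term for clusters of neighbouring library numbers it was 0.66 and no longer called (adjusted p = 0.0552).

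Myh7, the slow beta-myosin heavy chain that the mouse ventricle expresses before birth and again under load, was at 309 to 877 scaled FPKM in Tg saline (median 631) and at 125 to 553 in WT Ang II (median 204). A single Ang II library, female replicate 7, held 553, and the other 6 female Ang II libraries held 125 to 218. The log2 difference was 1.52 (SE 0.17, adjusted p = 2.04e-09). Myh6, the fast alpha-myosin of the adult ventricle, differed by -0.23 (adjusted p = 0.00217). Within a library, the ratio of Myh7 to Myh6 was 0.107 to 0.358 in Tg saline, 0.0425 to 0.169 in WT Ang II and 0.0328 to 0.0587 in WT saline.

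Ankrd1, an ankyrin-repeat protein that sits at the sarcomere and moves to the nucleus under stretch, was at 844 to 1710 scaled FPKM in Tg saline (median 1271) and at 302 to 1047 in WT Ang II (median 521). Its log2 difference was 1.29 (SE 0.17, adjusted p = 1.74e-07), and both states lay above WT saline, by 2.38 and 1.09. Synpo2l, an actin-bundling protein of the Z-disc, was higher by 1.0 and Fhl1, a LIM protein of the sarcomere, by 0.51. Rcan1, a target and inhibitor of calcineurin, was higher by 0.69 (adjusted p = 0.00391). Pdlim3, a Z-disc protein outside the list and named after its value was seen, separated the groups fully, with 4.1 to 6.68 scaled FPKM in Tg saline and 1.62 to 3.62 in WT Ang II.

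Acta1, the skeletal muscle alpha-actin that ventricles re-express under pressure, went the other way. It was at 188 to 954 scaled FPKM in WT Ang II (median 289), 60.9 to 220 in Tg saline (median 102) and 70.9 to 272 in WT saline (median 95.0). Tg saline overlapped the reference, with a change of 0.12 that was not called, while WT Ang II stood 1.75 above it. The direct log2 difference was -1.63 (SE 0.23, adjusted p = 5.96e-07), which is a 3.1-fold higher level in WT Ang II. It was -1.78 in females and -1.48 in males.

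Xirp2, which binds actin filaments at the intercalated disc, followed the same pattern without overlap. It was at 25.7 to 39 scaled FPKM in Tg saline (median 31.6), 41.8 to 86.4 in WT Ang II (median 47.6) and 20.8 to 34.2 in WT saline. The log2 difference was -0.76 (SE 0.10, adjusted p = 2.71e-07). Myot, the Z-disc protein myotilin, was the third lower gene at -0.94 (SE 0.13), with a change of -0.66 in Tg saline and 0.28 in WT Ang II. Myoz2, a calcineurin-binding Z-disc protein named after its value was seen, also did not overlap, at 138 to 168 scaled FPKM in Tg saline and 200 to 265 in WT Ang II.

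Because load genes moved both ways, ratios of their levels within a library set the states apart. These ratios were chosen after the values were seen and are a description with no test. The ratio of Acta1 to Myh7 was 0.105 to 0.448 in Tg saline (median 0.171), 0.501 to 5.22 in WT Ang II (median 1.47) and 0.411 to 1.94 in WT saline. The ratio of Acta1 to Ankrd1 was 0.057 to 0.182 in Tg saline, 0.265 to 1.25 in WT Ang II and 0.173 to 0.943 in WT saline. The ratio of Xirp2 to Synpo2l was 0.376 to 0.69 in Tg saline, 1.15 to 2.45 in WT Ang II and 1.1 to 1.73 in WT saline. In all 3 ratios every Tg saline library lay below every WT Ang II library. In all 3, WT Ang II overlapped WT saline, so a ratio in its range does not mark Ang II.

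**Figure D2:**
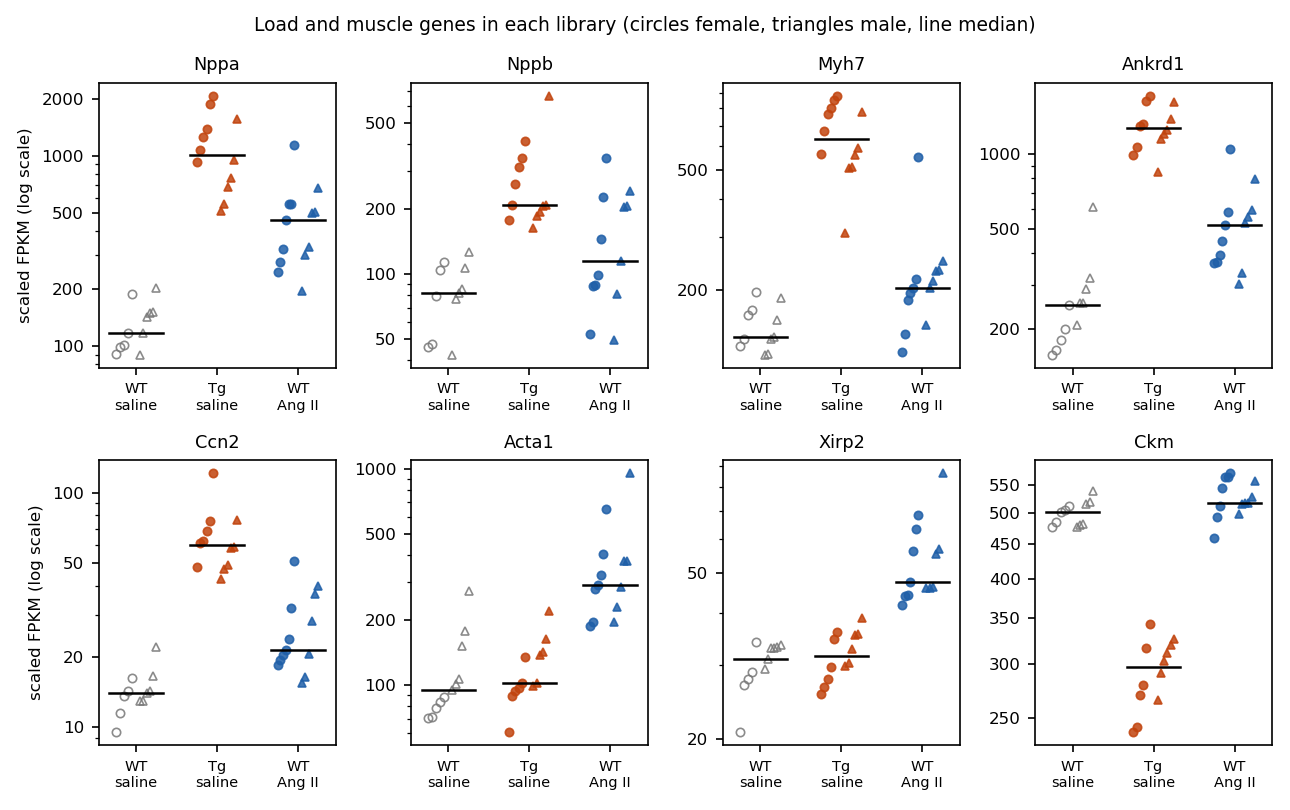
Scaled FPKM (log scale) of 8 load and muscle genes in each library of WT saline (grey, open), Tg saline (orange) and WT Ang II (blue); circles are females, triangles males and the line the group's median. Nppa, Myh7, Ankrd1 and Ccn2 are highest in Tg saline, Acta1 and Xirp2 are raised in WT Ang II only, and Ckm is low in Tg saline only, at 238 to 343 against 459 to 572 in WT Ang II.

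Promoters of 4 of these genes are shown, 3 of them higher in Tg saline and 1, Acta1, lower. They are a selection, and the other higher and lower load genes are not shown. The 250 bases before the start site were taken from RefSeq (GRCm38.p6) and searched on both strands for the MCAT element CATTCC, which TEAD factors bind, and for the CArG box, which serum response factor binds. An MCAT match was found in 12.6% of the 32851 promoters in the RefSeq table and a CArG match in 1.47%. Of the 17 load and hypertrophy markers with a promoter in that table, 5 held an MCAT match (the 4 shown and Mybpc2) and 2 held a CArG match (Acta1 and Fhl1). In the sequences below, 5′ to 3′ on the gene's strand, capitals mark the matches, read as GGAATG where the MCAT element lies on the other strand.
Acta1 (chr8:123894776-123895025, minus strand): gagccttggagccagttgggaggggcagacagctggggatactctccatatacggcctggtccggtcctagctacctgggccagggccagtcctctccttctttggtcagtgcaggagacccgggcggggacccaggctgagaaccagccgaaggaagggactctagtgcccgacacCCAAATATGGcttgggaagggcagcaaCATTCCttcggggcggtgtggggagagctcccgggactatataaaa
Myh7 (chr14:54994627-54994876, minus strand, the outer of 2 listed starts): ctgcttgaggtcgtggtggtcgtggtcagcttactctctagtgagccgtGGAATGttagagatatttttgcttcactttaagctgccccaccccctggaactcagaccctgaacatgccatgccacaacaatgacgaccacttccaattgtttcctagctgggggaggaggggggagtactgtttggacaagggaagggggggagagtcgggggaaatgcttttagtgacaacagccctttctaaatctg
Ankrd1 (chr19:36119845-36120094, minus strand): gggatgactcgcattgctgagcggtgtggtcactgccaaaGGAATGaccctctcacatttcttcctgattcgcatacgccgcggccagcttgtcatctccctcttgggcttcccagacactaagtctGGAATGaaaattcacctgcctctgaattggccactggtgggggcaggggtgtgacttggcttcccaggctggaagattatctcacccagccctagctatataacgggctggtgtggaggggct
Nppb (chr4:147985650-147985899, plus strand): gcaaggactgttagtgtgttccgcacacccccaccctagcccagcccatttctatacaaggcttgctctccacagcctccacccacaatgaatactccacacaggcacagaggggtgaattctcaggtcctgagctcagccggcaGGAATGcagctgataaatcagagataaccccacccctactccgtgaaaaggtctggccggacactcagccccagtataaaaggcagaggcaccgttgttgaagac

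The 4 promoters each hold an MCAT match, and Ankrd1 has 2. Most of the listed markers with a promoter hold none. Of the 4 only Acta1 also holds a CArG box, whose first base lies 73 bases before the start. Fhl1, the other listed marker with a CArG match, was higher in Tg saline, so the box was found in a gene of each direction. A match is a run of letters in this window and does not show that a factor binds there.

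Genes of the adult contractile apparatus were mostly lower in Tg saline, by small amounts. Of 20 tested sarcomere and cardiomyocyte identity genes, 11 were lower (55% against 16.2% of all genes), 1 was higher and 8 were not called, with a median log2 difference of -0.15. The intervals of 18 of the 20 lay within 1.5-fold. By library size, 7 were lower and 2 higher, with a median of -0.08. The 2 members outside that range were Mylk4, a kinase of the myosin light chain kinase family, at -1.03 (SE 0.14), and Ckm, the muscle creatine kinase.

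Ckm was at 238 to 343 scaled FPKM in Tg saline (median 297), 459 to 572 in WT Ang II (median 517) and 476 to 538 in WT saline. Its groups did not overlap, and the log2 difference was -0.85 (SE 0.07, adjusted p = 8.2e-13). The level of WT Ang II differed from WT saline by 0.08, so for this gene the transgenic hearts stood apart from both wild-type groups. Ckmt2, the mitochondrial creatine kinase, was lower by -0.40 with an interval still within 1.5-fold.

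Some calcium handling and ion channel genes were lower in Tg saline as well. Of 17 tested calcium handling genes, none was higher and 8 were lower in Tg saline (47.1% against 16.2% of all genes). The median was -0.14, and by library size 4 were higher and 6 lower. Atp2a2, the SERCA2 calcium pump that refills the sarcoplasmic reticulum, was at 873 to 1198 scaled FPKM in Tg saline (median 1059) and at 1176 to 1645 in WT Ang II (median 1510). Its log2 difference was -0.47 (SE 0.07, adjusted p = 6.86e-07), with a change against WT saline of -0.64 in Tg saline and -0.17 in WT Ang II. Strit1, whose micropeptide product DWORF activates that pump, was lower by -1.04 (SE 0.31), although its highest level in Tg saline, 10.1 scaled FPKM, lay above the highest in WT Ang II, 7.05.

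Of 21 tested ion channel genes, 9 were lower and 1, the connexin Gja5, was higher, while the list's median was 0.05. These shares are 42.9% and 4.76%, against 16.2% of all genes in each direction. By library size, 9 were lower and 4 higher. Scn4b, the beta-4 subunit of the sodium channel, was at 0.79 to 4.14 scaled FPKM in Tg saline (median 2.28), 2.06 to 9.2 in WT Ang II (median 6.37) and 6.01 to 13.8 in WT saline. Its log2 difference was -1.57 (SE 0.17, adjusted p = 1.73e-09), and it was below the reference in both states, by -2.32 and -0.75. Hcn4, the pacemaker channel, was lower by -0.83 and Kcnip2, the subunit of the fast transient outward current, by -0.62 (SE 0.08). The ATP-sensitive channel subunit Abcc9, also a pericyte marker, was lower by -0.67. Gja1, Kcnq1 and Kcnd2 were not called.

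Of 16 intercalated disc genes, 5 were higher and 2 lower, Ankrd1 and Xirp2 of the load list among them. These shares are 31.2% and 12.5%, against 16.2% of all genes in each direction. The desmosomal cadherin Dsc2 was higher by 0.50, and Dsp, Jup and Ctnna1 were higher by 0.14 to 0.21, each of the last 3 within 1.5-fold. The tight junction protein Tjp1 was lower by -0.23, and Cdh2, Pkp2 and Dsg2 were not called.

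Fibrillar collagens and several other matrix genes were at about the same level in both states, while other matrix genes were higher with the transgene. Of 18 tested collagens, 2 were higher and 2 lower, 11.1% each against 16.2% of all genes in each direction. The other 14 were not called, and for 13 of those 14 the interval lay within 1.5-fold. With a called member included, 14 of the 18 lay within it, a share no higher than the 85.1% of all genes, and 10 did so without the 4 libraries that stood apart. Against WT saline 13 of the 18 were called higher in Tg saline and 8 in WT Ang II. The median direct difference was 0.08, and it was 0.26, with 3 higher and none lower, without the 4 libraries that stood apart. By library size, 2 were higher and none lower.

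Col1a1, the alpha-1 chain of type I collagen, was at 10.5 to 23.3 scaled FPKM in Tg saline (median 13.3), 7.37 to 28.0 in WT Ang II (median 12.9) and 5.2 to 9.55 in WT saline (median 6.81). The 2 states overlapped, with a log2 difference of -0.05 (95% interval -0.40 to 0.30), or 0.20 without the 4 libraries that stood apart. Every Tg saline library lay above every WT saline library, while some WT Ang II libraries lay within the WT saline range. The change against WT saline was 0.88 in Tg saline and 0.93 in WT Ang II. Col1a2, which encodes the partner chain, differed by 0.10 (interval -0.19 to 0.40) and Col3a1, the type III chain, by 0.04 (interval -0.43 to 0.52).

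Postn, which encodes periostin of activated fibroblasts, was at 6.46 to 19.1 scaled FPKM in Tg saline (median 10.7) and at 4.04 to 37 in WT Ang II (median 9.22), with a difference of -0.06 (interval -0.56 to 0.43). Mfap4, a microfibril-associated glycoprotein, had medians of 15.3 and 13.8 scaled FPKM and a difference of 0.17 (interval -0.24 to 0.58). Meox1, a transcription factor of activated fibroblasts, had medians of 8.19 and 7.36 and a difference of 0.02 (interval -0.36 to 0.41). The elastic fibre gene Mfap5 differed by 0.06 and the secreted protein gene Fibin by -0.05. Outside the matrix, the metallothionein Mt2 differed by -0.03, the titin-binding Ankrd23 by 0.04 (interval -0.20 to 0.27) and the fast light chain Myl1 by -0.16 (interval -0.44 to 0.12).

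For some of these genes the equal level depended on single libraries. When each of the 25 libraries was left out in turn, the interval stayed within 1.5-fold in all 25 fits for Col1a1, Meox1, Mfap5, Fibin, Ankrd23 and Myl1. It did so in 24 fits for Mt2, 21 for Col3a1, 14 for Postn and 12 for Mfap4. Without WT Ang II female replicate 7, which held the highest level of Mfap4 (39.4) and Postn (37), the differences were 0.38 and 0.20. Without the 4 libraries that stood apart, the interval left the 1.5-fold range for Mfap4 (0.44, adjusted p = 0.0595), Mfap5 (0.32), Postn (0.31), Col3a1 (0.29) and Mt2 (0.10).

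Libraries of WT Ang II spread more widely than those of Tg saline in most of these genes. The coefficient of variation of Postn was 30% in Tg saline and 73.9% in WT Ang II, that of Mfap4 25.4% and 63.9%, and that of Fibin 13.9% and 59.7%. It was larger in WT Ang II for 8 of the 10 genes at the same level that the naming rule picked, where over all tested genes it was larger there for 56.5%. Without WT Ang II female replicate 7 it was larger for 9 of the 10. This is a description of these libraries, and the difference in spread was not tested.

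**Figure D3:**
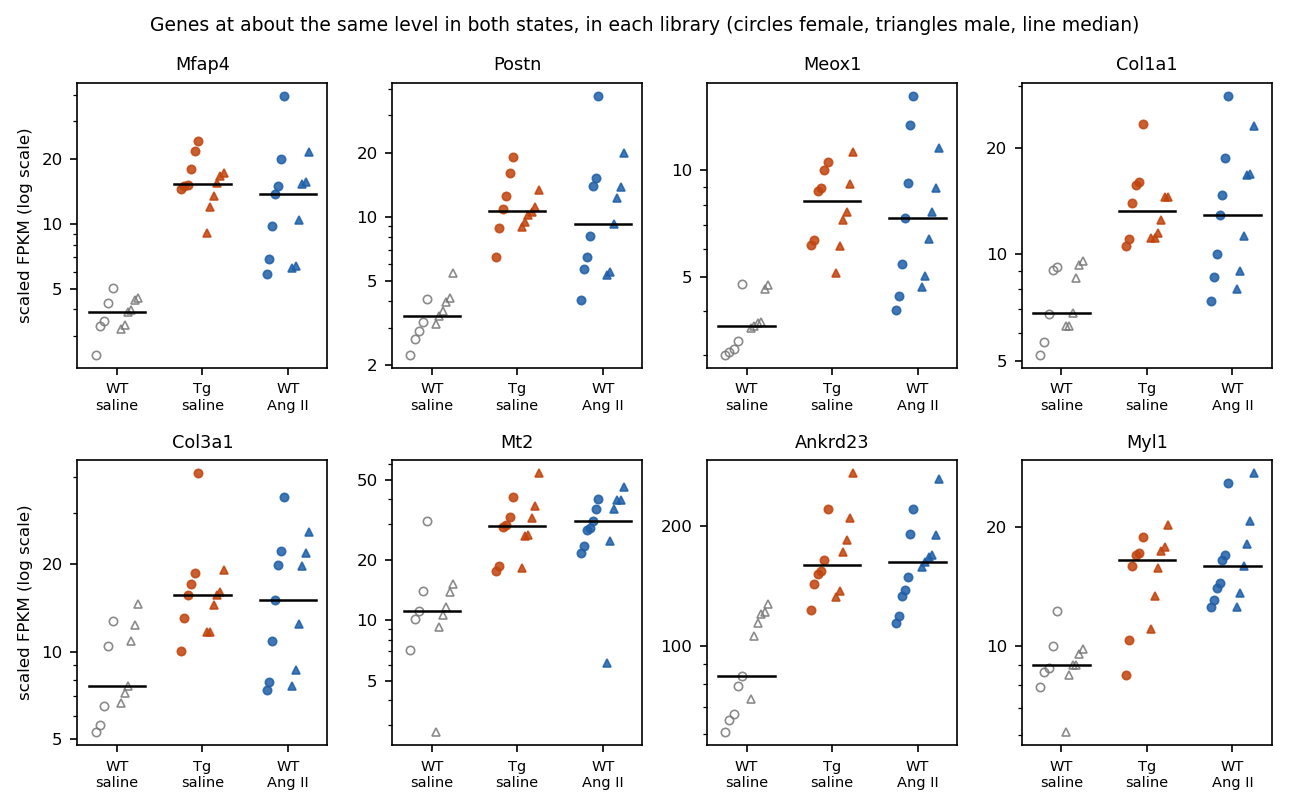
Scaled FPKM (log scale) of 8 genes at about the same level in both states, in each library; circles are females, triangles males and the line the group's median. The medians of Tg saline and WT Ang II lie close to each other and above WT saline in each panel, while Mfap4 and Postn spread more widely in WT Ang II than in Tg saline.

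Many matrix proteins other than collagens were higher with the transgene. Of 35 tested, 16 were higher in Tg saline (45.7% against 16.2% of all genes), 3 were lower and 16 were not called, with a median of 0.35. Without the 4 libraries that stood apart, 19 were higher and 1 lower. Ccn2, the connective tissue growth factor, was at 42.8 to 121 scaled FPKM in Tg saline (median 59.6) and at 15.5 to 51.4 in WT Ang II (median 21.3), with a log2 difference of 1.26 (SE 0.17, adjusted p = 1.23e-07). Its relative Ccn5 was higher by 1.07 (SE 0.27), and by 1.47 without WT Ang II female replicate 7, which held 8.06 scaled FPKM where the group's median was 1.73. Tnc and Vcan, which encode tenascin C and versican of provisional matrix, were higher by 0.73 and 0.75, and the small proteoglycan genes Dcn, Bgn and Lum by 0.49, 0.44 and 0.42.

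Thbs4, a thrombospondin of stressed muscle and matrix, stood on the other side. It was at 1.97 to 4.35 scaled FPKM in Tg saline (median 2.66) and at 1.22 to 17.1 in WT Ang II (median 4.26), with a log2 difference of -0.93 (SE 0.31, adjusted p = 0.0157). The call rested on WT Ang II female replicate 7: without it the difference was -0.58 (adjusted p = 0.0869). It was also lost with the term for library numbers (-0.76, adjusted p = 0.0755). Fmod, which encodes fibromodulin, and Sparc, a collagen-binding glycoprotein, were lower by -1.70 and -0.43. Without the 4 libraries that stood apart, 1 matrix protein of the list was called lower, and it was not Thbs4 (-0.53, adjusted p = 0.165). At most 1 of Fmod and Sparc therefore kept its call there.

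Among 14 tested matrix proteases and their inhibitors, 6 were higher (42.9%) and 2 lower (14.3%), against 16.2% of all genes in each direction (by library size, 6 and 1). Timp1 and Timp2, inhibitors of the metalloproteinases, were higher by 0.81 (SE 0.23) and 0.69 (SE 0.07), and Mmp3, stromelysin, by 1.10 (SE 0.20). Timp3 and the protease Adamts9 were lower by -0.42 and -0.66. Of 21 collagen processing genes, 6 were higher (28.6%) and 3 lower (14.3%), with Lox, Loxl2 and Serpinh1 not called (by library size, 8 and 1). The basement membrane collagens moved apart from each other: Col4a5 was higher by 0.66 (SE 0.07), while Col4a1 was lower by -0.34 (adjusted p = 0.0441), a call that 14 of the 25 fits without 1 library did not make.

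In the TGF-beta pathway, which drives matrix genes in fibroblasts, 5 of 21 tested genes were higher and 2 lower (by library size, 6 and 1). These shares are 23.8% and 9.52%, against 16.2% of all genes in each direction. The ligand Tgfb2 was at 3.32 to 7.31 scaled FPKM in Tg saline (median 3.99), 1.18 to 2.99 in WT Ang II (median 1.79) and 1.15 to 1.95 in WT saline. It did not overlap, with a log2 difference of 1.16 (SE 0.14, adjusted p = 1.06e-08). The ligand Tgfb1 and the endothelial co-receptor Eng were lower by -0.25 and -0.38, and the receptor Tgfbr2, the signal transducer Smad3, the decoy receptor Bambi and the latent binding protein Ltbp3 were higher by 0.15 to 0.35. Gdf15, a stress-induced distant family member, differed by 0.90 and was not called (adjusted p = 0.0605), but was called at 1.73 without the 4 libraries that stood apart.

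Markers of resident fibroblasts and macrophages were mostly higher in Tg saline, and those of endothelial cells mostly lower. In tissue RNA, fewer cells of a type and less RNA per cell cannot be told apart. Of 16 tested markers of resident fibroblasts, 14 were higher in Tg saline (87.5%), none was lower, and the median was 0.55. Their summed level was 610 to 843 scaled FPKM in Tg saline (median 706), 379 to 584 in WT Ang II (median 506) and 472 to 605 in WT saline, so no Ang II library reached the lowest Tg saline library. Pdgfra, the receptor that defines these cells, was higher by 0.55, the transcription factor Tcf21 by 0.76, Gsn, gelsolin, by 0.64, and Smoc2 by 0.66 (SE 0.08).

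Of 12 tested myofibroblast markers, 2 were higher (Acta2 and Ccn2), 1 was lower (Thbs4) and 9 were not called, with a median of 0.04. These shares, 16.7% and 8.33%, are near or below the 16.2% of all genes in each direction. The list's summed level had a median of 189 scaled FPKM in Tg saline and 102 in WT Ang II. Acta2 and Ccn2, the 2 higher members, make up much of that sum. Without the 4 libraries that stood apart, 4 were higher and none lower (median 0.32). Acta2, smooth muscle actin, which is made by myofibroblasts, smooth muscle and immature cardiomyocytes, was at 43.8 to 194 scaled FPKM in Tg saline (median 82.0) and at 21.4 to 50.8 in WT Ang II (median 32.9). Its log2 difference was 1.38 (SE 0.15, adjusted p = 2.58e-09), while Tagln, another actin-binding marker of smooth muscle, differed by -0.19 and was not called. The actin genes share long coding stretches, as do Myh6 and Myh7, and how reads that fit several genes were counted is not given in the sources used here.

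Macrophage markers were higher in Tg saline. Of 14 tested, 12 were higher (85.7%), none was lower and the median was 0.65. The summed level was 171 to 441 scaled FPKM in Tg saline (median 223), 94.4 to 249 in WT Ang II (median 146) and 114 to 145 in WT saline, and the 2 states overlapped. Folr2, a marker of resident macrophages, was higher by 1.09 (SE 0.18) and Cd68, a lysosomal marker, by 0.73 (SE 0.12), while Mertk and Lyve1 were not called. Only 1 of 16 lymphocyte and granulocyte markers, S100a9, was abundant enough to test, at -0.32 (adjusted p = 0.715). Of 6 MHC class II genes 1 was called, H2-DMb1, higher by 0.46, a share of 16.7% against 16.2% of all genes.

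Endothelial markers went the other way, with 16 of 18 lower in Tg saline (88.9%), none higher and a median of -0.46. The summed level was 340 to 535 scaled FPKM in Tg saline (median 411), 447 to 695 in WT Ang II (median 592) and 419 to 641 in WT saline. Cdh5, the endothelial cadherin, did not overlap, at 23.7 to 32.7 scaled FPKM in Tg saline and 32.8 to 49.8 in WT Ang II, and its difference was -0.45 (SE 0.07, adjusted p = 2.83e-06). Tie1 and Pecam1 were lower by -0.55 and -0.46, and Vwf and Aqp1 were not called. By library size, 13 of the 18 were lower and none higher.

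Of 14 mural cell markers, 6 were lower (42.9% against 16.2% of all genes), among them the pericyte genes Rgs5 (-0.40) and Higd1b (-0.35). Another 2 were higher (14.3%), Acta2 and Cspg4. By library size, 2 were lower and 2 higher. Resident fibroblast and macrophage markers were mostly higher in Tg saline, as were many matrix genes above, while endothelial and mural markers were more often lower. The part of these cell types in the matrix differences was not tested.

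**Figure D4:**
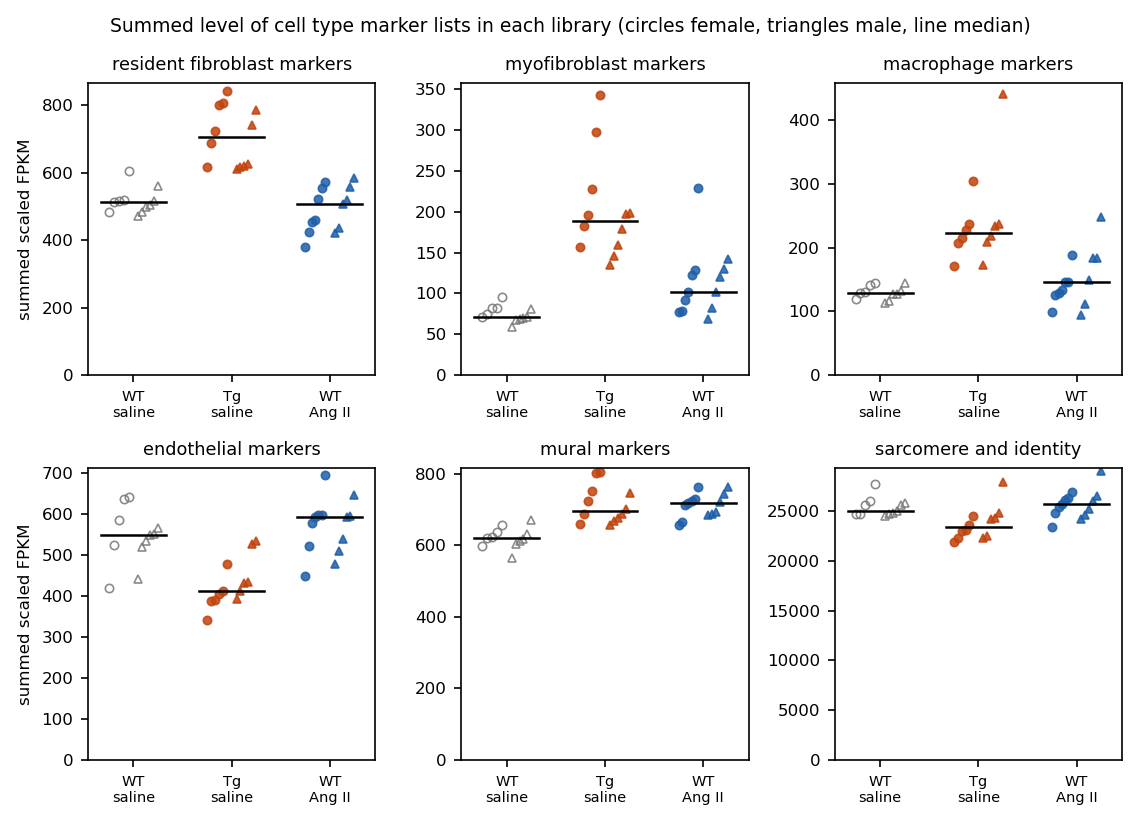
Summed scaled FPKM of 6 marker lists in each library; circles are females, triangles males and the line the group's median. The resident fibroblast sum is 610 to 843 in Tg saline and 379 to 584 in WT Ang II, the endothelial sum is lower in most Tg saline libraries, and the mural and sarcomere sums overlap.

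In each list of oxidative metabolism some genes were lower in Tg saline, most of them by small steps. Of 36 tested genes of fatty acid use, none was higher and 20 were lower (55.6%), with a median of -0.24 and 30 intervals within 1.5-fold. By library size, 15 were lower and none higher. Lpl, the lipoprotein lipase that frees fatty acids from circulating lipid, did not overlap, at 221 to 283 scaled FPKM in Tg saline and 321 to 402 in WT Ang II, and its difference was -0.52 (SE 0.06). The oxidation genes Etfb, Acaa2, Eci2, Ech1 and Echs1 were lower by -0.36 to -0.35, whereas the regulators Ppara and Ppargc1a and the entry gene Cpt1b were not called.

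Of 29 tested genes of glucose use, 10 were lower (34.5%) and 2 higher (6.9%), against 16.2% of all genes in each direction. The median was -0.10 (by library size, -0.03 with 6 lower and 3 higher). Eno3, the muscle enolase, did not overlap, at 208 to 329 scaled FPKM in Tg saline, 367 to 492 in WT Ang II and 383 to 499 in WT saline. The hexokinase Hk1 and the phosphoglycerate mutase Pgam1 were higher by 0.38 and 0.36, while their muscle counterparts Hk2 and Pgam2 were lower by -0.19 and -0.24. Sord, sorbitol dehydrogenase of the polyol pathway, was at 22.2 to 32 scaled FPKM in Tg saline (median 26.9) and at 41.6 to 60.2 in WT Ang II (median 52.0). Its difference of -0.99 (SE 0.07, adjusted p = 2.01e-15) came with a change of -1.06 in Tg saline and -0.08 in WT Ang II.

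Of 22 genes of branched-chain amino acid degradation, 14 were lower (63.6% against 16.2% of all genes) and none higher. The median was -0.15, and by library size 9 were lower and 2 higher. Of 18 genes of the tricarboxylic acid cycle, 10 were lower (55.6%) and 1 higher (5.56%), and all 18 intervals lay within 1.5-fold. By library size, 6 were lower and 2 higher. All 40 nuclear subunits of the respiratory chain lay within 1.5-fold as well, with 15 lower (37.5%), none higher and a median of -0.10. By library size, 5 were lower and 1 higher. Of the 13 proteins of the mitochondrial genome, 4 were lower (30.8%) and none higher, again all within 1.5-fold. These lists therefore differed in many members by less than the range that was taken as equal level.

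Of 20 tested targets of the antioxidant regulator NRF2, 10 were higher in Tg saline (50% against 16.2% of all genes) and 1 lower (5%). The median was 0.19, and 19 intervals lay within 1.5-fold. Srxn1, sulfiredoxin, was higher by 0.40, G6pdx, which supplies NADPH, by 0.39 and Gstm2, a glutathione transferase, by 0.33. Of 18 genes of heat shock and protein turnover, 6 were higher (33.3%) and 2 lower (11.1%). The inducible chaperones Hspa1a and Hsp90aa1 were higher by 0.83 (SE 0.16) and 0.51 (SE 0.08), and the autophagy gene Map1lc3b was lower by -0.20. Of 18 chaperones and stress genes of the endoplasmic reticulum, 5 were lower (27.8%), led by Herpud1 at -0.56, and none was higher. By library size, 2 were lower and 2 higher. Of 16 integrated stress response genes, Psat1 was the 1 called (6.25%), higher by 0.42. By library size 4 were higher, and 5 were without the 4 libraries that stood apart.

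Among 40 cytosolic ribosomal proteins, 4 were lower (10%) and 2 higher (5%), below the 16.2% of all genes in each direction. By library size, 2 were lower and 3 higher. The 2 forms of the same subunit, Rpl3l and Rpl3, moved in opposite directions. Rpl3l, the striated-muscle form, was at 21.5 to 51.3 scaled FPKM in Tg saline (median 31.6), 40.3 to 82.9 in WT Ang II (median 72.1) and 75.0 to 108 in WT saline. Rpl3, the general form, was at 47.2 to 63.6 scaled FPKM in Tg saline (median 56.3), 34.4 to 56.7 in WT Ang II (median 40.6) and 28.6 to 41.3 in WT saline. The log2 differences were -1.06 (SE 0.12, adjusted p = 4.27e-09) for Rpl3l and 0.41 (SE 0.06, adjusted p = 3.89e-06) for Rpl3. In both genes the median of WT Ang II lay between those of WT saline and Tg saline.

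Some genes tied to the Ang II pathway itself were called, in both directions. Of 9 tested components of the renin-angiotensin system, 2 were higher and 2 lower (by library size, 3 and 2). That is 22.2% each, near the 16.2% of all genes in each direction for so short a list. Agt, the precursor of angiotensin, was at 0.713 to 5.35 scaled FPKM in Tg saline (median 1.79) and at 2.02 to 6.49 in WT Ang II (median 4.03), with a difference of -0.92 (SE 0.27, adjusted p = 0.00591). The type 1 receptor gene Agtr1a was lower in Tg saline by -0.30 (adjusted p = 0.0143), below WT saline in both states by -0.64 and -0.34. Ace, the converting enzyme, was higher by 0.45 (SE 0.11). Of 18 genes of the angiotensin and calcineurin response, 6 were lower (33.3%) and 1, Rcan1, was higher (5.56%). By library size 4 were lower and 1 higher, and with the term for library numbers 3 and 1. Among the lower were the kinase Sgk1 at -0.77 (SE 0.17) and the endothelin receptor Ednrb at -0.56.

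Of 15 tested immediate early genes, 12 were not called (by library size, 3 were higher and none lower). The shares called, 13.3% higher and 6.67% lower, were below the 16.2% of all genes in each direction. Myc was higher in Tg saline by 0.99 (SE 0.13, adjusted p = 2.13e-07), at 1.66 to 3.59 scaled FPKM against 0.74 to 2.39 in WT Ang II. Of the other members, Fosl2 was higher by 0.35 and Klf4 was lower by -0.28 (adjusted p = 0.0481, lost in 15 of the 25 fits without 1 library). Of 17 interferon-stimulated genes, 2 were higher and 3 lower (by library size, 2 and 2). These shares, 11.8% and 17.6%, are near or below the 16.2% of all genes in each direction. Ifit2 was higher by 0.69 and Ifi27l2a by 0.84 (0.51 without Tg saline male replicate 6). Rsad2 was lower by -0.70, Oas2 by -0.51 and Xaf1 by -0.29.

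**Figure D5:**
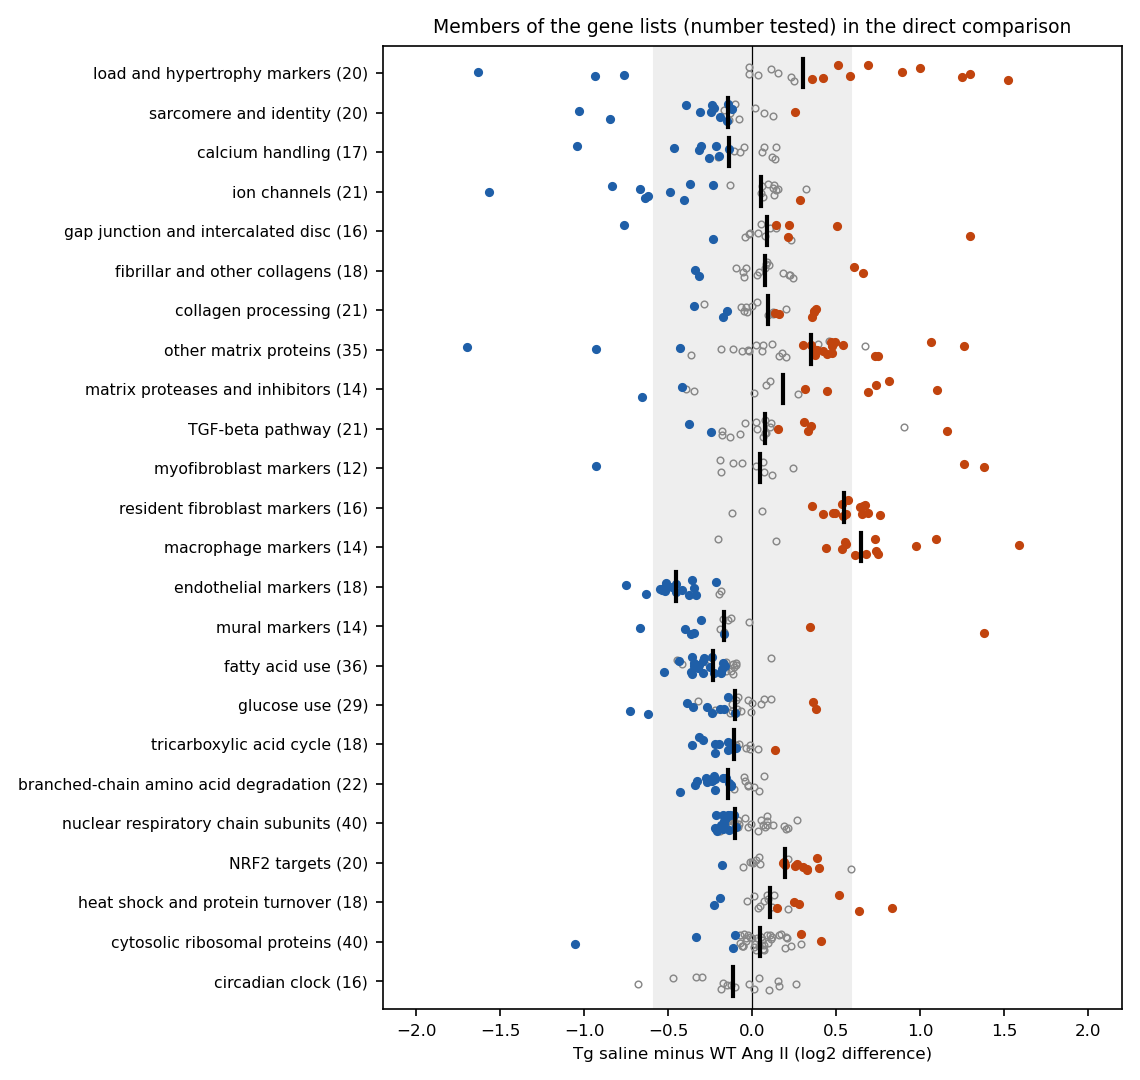
Log2 difference, Tg saline minus WT Ang II, of each tested member of 24 gene lists; orange points were called higher in Tg saline, blue points lower, open grey points were not called, black bars are medians and the shaded band is the 1.5-fold range. Fibroblast and macrophage markers lie to the right (medians 0.55 and 0.65), endothelial markers to the left (-0.46), and the medians of the metabolic lists lie left of 0 inside the band.

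The other genes with the largest negative differences have varied functions. Ddit4 (-0.97, SE 0.29), an inhibitor of mTOR signalling, and Depp1 (-0.95, SE 0.24), a FOXO target, varied widely within both groups. Lgals4, a galectin, was lower by -0.90 (SE 0.18), and Slc26a10, of an anion transporter family, by -0.91 (SE 0.13). Lgals4 was below WT saline in both states, by -1.60 and -0.70.

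A few genes changed in opposite directions against WT saline. Tmem82, a membrane protein, was lower than WT saline by -0.65 in Tg saline and higher by 0.50 in WT Ang II, with a direct difference of -1.15 (SE 0.17). Tmx1, a thioredoxin-related transmembrane protein, was at 6.51 to 13 scaled FPKM in Tg saline, 14.6 to 25.2 in WT Ang II and 10.9 to 15.8 in WT saline. Bdh1, which interconverts the ketone bodies, was at 20.4 to 35.3 in Tg saline, 38.6 to 52.1 in WT Ang II and 27.8 to 45.4 in WT saline. Neither Tmx1 nor Bdh1 overlapped between the 2 states. Prepl, a prolyl endopeptidase-like enzyme, shared that direction with a difference of -0.86 (SE 0.09). Scgb1c1, a secretoglobin, and Pcsk6, a proprotein convertase, had the reverse pattern, with differences of 1.0 (SE 0.17) and 0.66 (SE 0.07).

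The sexes gave no gene whose difference between the states itself differed by edgeR's adjusted test: 0 of 11628 were called, with 293 (2.52%) at an unadjusted p under 0.05. With DESeq2 the latter count was 312. Among named genes both sexes gave the same direction in, for example, Scn4b, at -1.99 in females and -1.14 in males, and Rprm, at 5.09 and 4.15.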

How the data were processed

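Left-ventricle RNA was sequenced, and the authors deposited 1 table of read counts and FPKM per gene. Per the submitters' processing notes, reads were processed with cutadapt 1.9, FastQC, HISAT2 2.0.4 and StringTie 1.3.4d; the counting tool, strand setting, genome build and multi-mapping reads are not given in the sources used here. The deposited FPKM were divided by median-of-ratios factors to give scaled FPKM. Gene positions are those of the table, and 91.6% of the 35599 genes shared with GENCODE M21 (GRCm38) had identical positions.

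Genes that reached an FPKM of 1 in 5 or more libraries entered the test, run on the deposited counts with edgeR 4.0.16 (quasi-likelihood, R 4.3.3), fitting all 8 groups of genotype, infusion and sex (48 libraries) and averaging the sexes. Each p was adjusted by Benjamini-Hochberg over all genes tested. P-values set each difference against the spread between libraries. Alternatives used TMM, library size alone, DESeq2 1.42.0, limma 3.58.1 with pseudocounts of 1 and 0.1, other filters, other sets of libraries, and a term for clusters of library numbers. The scripts were tested on simulated data.

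Members and lists (40 lists, 739 genes) were chosen with earlier results of these data known. The text names the 12 largest called differences in each direction and 10 genes at the same level (mean scaled FPKM of at least 5). It also names 6 genes of opposite direction, up to 4 members per list with the smallest p of the direct comparison, and 11 fixed genes. Strit1, Myoz2, C3, C4b, Pdlim3, Timp1, Csrp3, Myh6, Ccn5 and further members of lists were named after their values were seen.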

Additional observations from a re-analysis of the deposited data

Results flagged for a closer look

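In 20 of 172 pairs of a named gene and a group of one sex, the highest or lowest library lay further from the rest than Dixon's criterion allows. About 9 such pairs would be expected if 1 in 20 groups passed it. That rate holds for independent, normally spread values. Scaled FPKM need not be so, and Rn7s1 and Rn7s2 are near-identical copies, so the 9 is only a rough guide. Highest and lowest below are within the library's own group and sex, in scaled FPKM, and no explanation was tested.

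Tg saline male replicate 6 held the highest Nppb (666 scaled FPKM, the other 5 males 164 to 209), Rn7s1 (30.3), Rn7s2 (30.7) and Scgb1c1 (11.1), and the lowest Prepl (6.87). Tg saline female replicate 1 held the highest Rn7s1 (9.59) and Rn7s2 (10.1) and the lowest Tmx1 (6.51). WT Ang II female replicate 7 held the highest Myh7 (553, the other females 125 to 218) and Sprr1a (3.59) and the lowest Slc26a10 (3.88). WT Ang II male replicate 1 held the highest Ankrd23 (263) and the lowest Rpl3l (49.6) and Slc26a10 (3.27). These 4 libraries were left out together as one of the alternatives.

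The remaining values came from a library each. Scgb1c1 was 10.6 in Tg saline female replicate 3, Sprr1a was 11.5 in Tg saline male replicate 2, and Myl1 was 25.8 in WT Ang II female replicate 3. Mt2 was 6.1 in WT Ang II male replicate 2, where the other males held 24.9 to 46. Gm49909 was 27.8 in WT Ang II female replicate 5, where the other females held 0 to 0.339, and 0.199 in WT Ang II male replicate 6.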

How the results depend on the processing

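The 3770 genes called between the 2 states were 3496 to 3885 when 1 library was left out, 3796 with TMM scaling, 3878 with DESeq2, 3768 and 3762 with limma and 3552 with the 25 libraries alone. They were 3601 with the 2 libraries of disagreeing labels under their titles, 3177 with a term for clusters of library numbers and 3569 without the 4 libraries that stood apart, an alternative chosen after seeing the data. A filter of FPKM 5, which leaves fewer genes, gave 2016 called, 171 at least 1.5-fold apart and 4705 within 1.5-fold; it gave 2581 for Tg saline and 1090 for WT Ang II against WT saline. Females alone gave 2238 (3106 and 665 against WT saline) and males alone 1275 (2292 and 243), each with fewer samples. Genes at least 1.5-fold apart numbered 173 with limma and a pseudocount of 1, which shrinks low genes, and 1290 with no filter.

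Signs changed among uncalled genes with 1 library left out: Col1a1, Col3a1, Postn, Fibin, Mt2, Ankrd23, Meox1 and Mfap5, all near 0 and judged by their interval, lay between -0.149 and 0.238. Rrm2, at -0.70, ranged from -0.856 to 0.018 with 1 library left out and was 0.49 without the 4 libraries. S100a9, at -0.32, ranged from -0.547 to 0.297 with 1 library left out, and was 0.0395 with limma and a pseudocount of 0.1 and 0.87 in males. The cause was not tested. The term for clusters of library numbers ended the calls of Thbs4, Nppb, Cdkn1a, Col4a1, Col4a2, Klf4, Slc39a14, Nmnat1, mt-Nd1 and mt-Co3. No paired analysis was possible because every library number occurs once, so no replicate number is shared between groups by animal, litter or day. Depth limits little here: a gene at the 10th percentile of abundance had a mean count of 196, a counting error of 7.14%.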
